A study of Mus musculus with 15 samples.

Results

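Hepcidin and the BMP-SMAD genes around it were followed through 15 mouse liver tumors by taking every non-control probe of the array whose gene name was Hamp, Hamp2, Bmp6, Bmp2, Hfe, Tfr2, Tmprss6, Id1, Smad6 or Smad7. All 10 genes were found, each with 1 probe printed in 1 spot, among 35715 gene names or identifiers and 55681 probes on the array. Whole tumor RNA was compared across 3 groups of 5: hepatocellular carcinomas (HCC) from p53f/f animals, HCC from p53LKO animals, and p53LKO tumors labelled ICC, the usual abbreviation of intrahepatic cholangiocarcinoma. The p53LKO mice lack Trp53 in the liver only, with a Cre driver not named in the sources used here, whereas the p53f/f mice carry the floxed Trp53 gene without its deletion. All animals were on a C57BL/6J background and received CCl4, a liver toxin dissolved in olive oil, at 0.5 µl per g of body weight for 16 weeks from young adulthood, so that no group is untreated and no adjacent liver was hybridised. The age of each arrayed mouse at tumor collection is not given in the sources used here. The p53f/f animals of the study were followed to later ages than the p53LKO animals, so that age and genotype may be bound together and cannot be told apart in the comparison of the HCC groups. The 5 p53f/f HCC came from 4 mice, since mouse 3717 gave 2 tumors, and mice 3731, 3733, 3976 and 5283 each gave an HCC and an ICC. The study asked how iron metabolism differs in liver cancers without p53, and the genes below are those through which the liver sets the level of hepcidin.

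Hepcidin is a small peptide hormone made mainly by hepatocytes, and it lowers plasma iron by causing the degradation of the iron exporter ferroportin. Mice carry a pair of neighbouring hepcidin genes, Hamp and Hamp2, of which Hamp encodes the iron-regulating hormone. In the liver, BMP6 and BMP2 are released mainly by sinusoidal endothelial cells and bind BMP receptors on hepatocytes together with the co-receptor hemojuvelin, named Hfe2 on the array. The receptors then phosphorylate SMAD proteins that switch on Hamp together with Id1, Smad6 and Smad7. The products of Hfe and Tfr2 report transferrin iron to this pathway, the protease made from Tmprss6 damps it by acting on hemojuvelin, and inflammation raises Hamp by a separate route through IL-6 and STAT3.

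The pair of hepcidin genes is measured by probes of related sequence, shown here because their signals are described side by side below. The Hamp probe lies at chr7:31727490-31727549 and the Hamp2 probe at chr7:31707520-31707579 of mm9, both on the minus strand, by the positions in the array files. Aligned without gaps, 42 of 59 bases are the same (71.2%), and capitals mark the bases that differ or lie outside the alignment.
Hamp probe: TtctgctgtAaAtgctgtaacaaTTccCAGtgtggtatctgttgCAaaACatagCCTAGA
Hamp2 probe: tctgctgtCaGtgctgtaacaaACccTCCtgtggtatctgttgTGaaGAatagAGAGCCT
How much signal each probe takes from the other transcript was not tested.

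The 150 bases before the annotated start of each gene, from RefSeq on GRCm38.p6, are shown because the signals of Hamp and Hamp2 moved together within groups (below). They lie at chr7:30944030-30944179 for Hamp and chr7:30924182-30924331 for Hamp2, both on the minus strand, and share 135 of 153 aligned positions (88.2%). Capitals mark the letters GGCGCC, the core of BMP response elements, and TTCNNNGAA, a form of STAT site. Each of these motifs reads the same on both strands, and the matches do not overlap.
Hamp promoter: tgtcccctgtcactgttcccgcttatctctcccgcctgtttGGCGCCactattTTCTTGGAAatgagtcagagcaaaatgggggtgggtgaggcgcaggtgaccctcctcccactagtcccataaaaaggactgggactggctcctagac
Hamp2 promoter: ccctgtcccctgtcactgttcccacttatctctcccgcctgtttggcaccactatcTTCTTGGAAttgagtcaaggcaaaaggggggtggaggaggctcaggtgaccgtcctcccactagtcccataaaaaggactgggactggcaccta
In Hamp, GGCGCC began at position -109 from the start and TTCNNNGAA at -97. In Hamp2 only TTCNNNGAA was found, at -94. Over 250 bases before the start of 32851 promoters, GGCGCC occurred in 9.59%, TTCNNNGAA in 7.02% and both in 0.368%. Neither motif was found in those 250 bases of Bmp6, Hfe, Smad6 or the 3 promoters listed for Tfr2, and Bmp2, Id1, Smad7 and Tmprss6 were not searched.

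The level of a gene is given throughout as log2 processed signal relative to the array's 75th percentile, so that 0 is the level of that percentile and 1 unit is a doubling. Levels compare a gene between tumors and are not set against other genes. Probes well above background made up 55.1% to 70.1% of each p53f/f HCC array, 37.0% to 62.1% of each p53LKO HCC array and 42.5% to 47.0% of each ICC array. The arrays lay in the upper and lower rows of 2 slides. All p53f/f HCC lay in an upper row and all ICC in a lower row. The p53LKO HCC of mice 3976 and 5283 were the only HCC in a lower row, so row and group are largely bound together. The share well above background followed the row, with 55.1% to 70.1% on upper-row and 37.0% to 47.0% on lower-row arrays. Among p53LKO HCC it was 61.0% to 62.1% in the upper row and 46.4% and 37.0% in the lower row. The Trp53 probe, which the array file places outside the Trp53 locus, read -1.27 to -0.68 in p53f/f HCC, -3.86 to -2.75 in p53LKO HCC and -4.19 to -2.31 in ICC. Summed hepatocyte markers (log2 of the sum of 10 genes) ranged from 11.57 to 12.48, from 11.23 to 11.62 and from 9.76 to 11.03 in the 3 groups. Such sums weigh the brightest genes most. The mean level of the 10 genes overlapped between p53LKO HCC (5.92 to 6.84) and ICC (3.96 to 6.49). The 8 biliary markers ranged from 2.15 to 4.82, from 2.42 to 3.39 and from 6.07 to 7.18, with Epcam not well above background in any p53LKO HCC and well above it in all 5 ICC. All 10 hepatocyte markers stayed well above background on every array, ICC included.

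**Figure D1:**
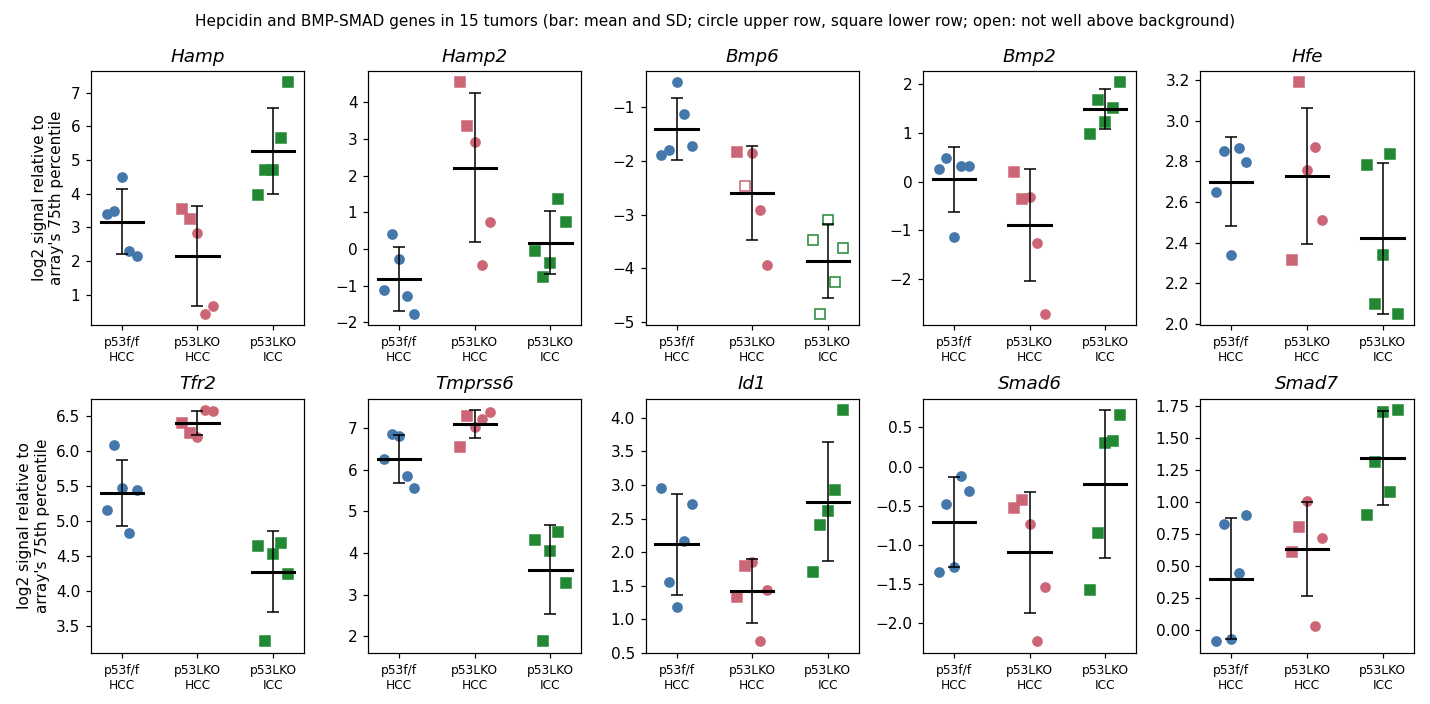
Level of each of the 10 genes (y axis, log2 signal relative to the 75th percentile of the array) in every tumor of the 3 groups (x axis), with bars for the mean and SD of 5 tumors, circles for upper-row and squares for lower-row arrays, and open symbols where the probe was not well above background. Hamp and Bmp2 of all 5 ICC lie above all 5 p53LKO HCC, whereas Tfr2 and Tmprss6 lie below them.

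Hamp, the iron-regulating hepcidin, was highest in ICC. In p53f/f HCC its level was 3.38, 3.50 and 4.50 in mice 3681, 3715 and 3716 and 2.30 and 2.16 in the tumors of mouse 3717. In p53LKO HCC it was 3.54 in mouse 3976, 3.25 in mouse 5283, 2.85 in mouse 3731, 0.43 in mouse 3733 and 0.67 in mouse 3975. The p53LKO HCC thus fell into 3 tumors inside the p53f/f range and 2 below every p53f/f tumor. Their mean was 2.15 ± 1.48 against 3.17 ± 0.96 (SD, n = 5 each), a difference of -1.02 ± 0.69 on the log2 scale (SE) that did not pass the test (limma adjusted p = 0.274; exact permutation p = 0.238, two-sided). The 95% interval of that difference ran from -2.53 to 0.49. The 2 lower-row arrays were among the 3 higher p53LKO HCC, and in the upper row alone (3 against 5 tumors) the difference was -1.85 with a limma adjusted p of 0.0715.

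In ICC the level of Hamp was 3.96 in mouse 3731, 4.72 in mouse 3733, 4.70 in mouse 3976, 5.65 in mouse 3977 and 7.31 in mouse 5283. No ICC overlapped with the p53LKO HCC. Their mean of 5.27 ± 1.29 was 3.12 ± 0.76 above that of p53LKO HCC on the log2 scale, an 8.7-fold difference (limma adjusted p = 0.00759; exact permutation p = 0.00794, the smallest that 5 against 5 tumors allow). Within the same mouse the ICC exceeded the HCC by 1.12 in mouse 3731, 4.28 in mouse 3733, 1.16 in mouse 3976 and 4.06 in mouse 5283, all 4 in the same direction. Of the 5 p53LKO HCC only those of mice 3976 and 5283 shared a row with the ICC, and against these 2 tumors the difference was 1.87 without overlap and no longer passed the test (limma adjusted p = 0.129 with row as a block and 0.125 in the lower row alone). On slide 1 the difference was 0.57 (1 ICC against 2 HCC) and on slide 2 it was 4.28 (4 against 3). The summed level of the hepatocyte markers was lower in ICC, with 5 of 10 markers passing the test downwards and 0 upwards, against 27.3% and 17.9% of all probes. The part of hepatocyte content in the level of Hamp was not tested. In whole tumors fewer cells of a type and less RNA per cell cannot be told apart.

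Hamp2, the second hepcidin gene, was highest in p53LKO HCC. Its level was -1.13, 0.42, -0.28, -1.29 and -1.76 in the p53f/f HCC of mice 3681, 3715, 3716, 3717 and 3717. In p53LKO HCC it reached 4.54 in mouse 3976, 3.36 in mouse 5283 and 2.91 in mouse 3731, with -0.45 in mouse 3733 and 0.73 in mouse 3975. All but mouse 3733 were above every p53f/f tumor, and mice 3733 and 3975 were again the lowest, as for Hamp. The difference of 3.03 ± 0.85 (8.17-fold) passed the test (limma adjusted p = 0.0198; exact permutation p = 0.0238). It was 1.87 in the upper row alone (3 against 5 tumors), where the groups overlapped and the limma adjusted p was 0.0921. On slide 1 it was 4.53 (2 against 4), where both p53LKO HCC lay in the lower row. On slide 2 it was 2.83 (3 against 1), the p53f/f tumor there having the lowest Hamp2 of its group. Neither slide showed overlap at these numbers of tumors.

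In ICC the level of Hamp2 was -0.05, -0.78, -0.40, 1.36 and 0.73 in mice 3731, 3733, 3976, 3977 and 5283. These values overlapped with mice 3733 and 3975 of the p53LKO HCC, and the difference of -2.05 ± 0.85 did not pass the test (limma adjusted p = 0.0714). With the mouse as a paired block, which rests on the 4 mice that gave both tumors, the difference was -2.71 and passed it (limma adjusted p = 0.036). Hamp2 was lower in the ICC than in the HCC of all 4 of these mice, by 0.33 to 4.94 on the log2 scale. Against the 2 p53LKO HCC of the lower row it was -3.78 (limma adjusted p = 0.011 with row as a block). In these same 4 mice Hamp was thus higher in ICC and Hamp2 lower.

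**Figure D2:**
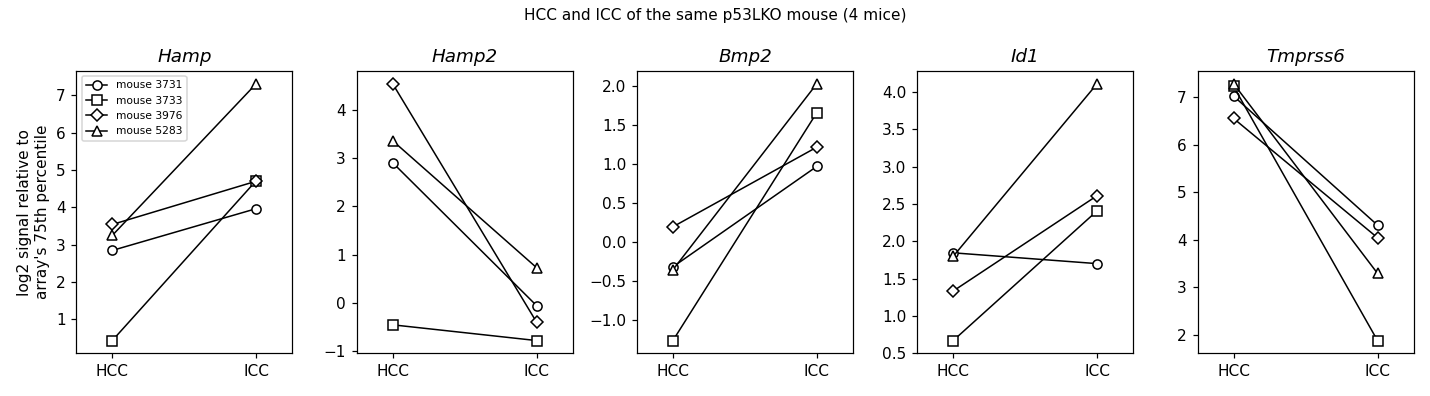
Levels (y axis, log2 signal relative to the 75th percentile of the array) of 5 genes in the HCC and the ICC (x axis) of the 4 p53LKO mice that gave both, with a line for each mouse. Hamp and Bmp2 are higher and Hamp2 and Tmprss6 lower in the ICC of all 4 mice, and Id1 is higher in 3 of 4.

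Bmp6 and Bmp2, the ligands that drive hepcidin from the endothelium, parted in ICC. Bmp6 was dim throughout, at -1.88, -1.80, -0.54, -1.12 and -1.72 in p53f/f HCC (mice in the order above) and at -1.84, -2.47, -1.85, -2.91 and -3.93 in p53LKO HCC of mice 3976, 5283, 3731, 3733 and 3975. The difference of -1.19 ± 0.42 (2.28-fold lower) passed the test narrowly (limma adjusted p = 0.0486; exact permutation p = 0.0238), 3 of the 5 p53LKO tumors lying below the whole p53f/f group. It was lost when any of 8 of the 10 tumors was left out, at limma adjusted p values up to 0.0986, with slide as a block (-0.95, limma adjusted p = 0.135) and with the tumors of mouse 3717 averaged (limma adjusted p = 0.0804). In ICC the Bmp6 probe was not well above background on any of 5 arrays (-4.85 to -3.10), which bounds it at least 1.09-fold lower than in p53LKO HCC (limma adjusted p = 0.0375, 0.0522 with row as a block). All ICC lay in the lower row, where fewer probes were well above background. Of the lower-row p53LKO HCC, mouse 5283 was not well above it at -2.47 and mouse 3976 was at -1.84. In the upper row mouse 3975 was well above it at -3.93. For this lack of signal, row and tumor type cannot be told apart.

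Bmp2 read 0.27, 0.48, -1.14, 0.32 and 0.33 in p53f/f HCC and 0.20, -0.35, -0.32, -1.26 and -2.71 in p53LKO HCC, with mice in the same order. Mouse 3716 stood alone among the p53f/f HCC. The groups overlapped, and the difference of -0.94 ± 0.52 did not pass the test (limma adjusted p = 0.187). In ICC it read 0.97, 1.66, 1.22, 1.51 and 2.04 in mice 3731, 3733, 3976, 3977 and 5283, above every HCC of p53LKO mice and every HCC of p53f/f mice. The rise of 2.37 ± 0.48 over p53LKO HCC (5.16-fold) passed the test (limma adjusted p = 0.00293; exact permutation p = 0.00794). Bmp2 was higher in the ICC of all 4 mice with both tumors, by 1.02 to 2.93, and in the lower row alone it was 1.56 higher without overlap (limma adjusted p = 0.0178, 0.0566 with row as a block). Endothelial markers (log2 of the sum of 10 genes) spanned 5.24 to 5.87 in p53LKO HCC and 4.85 to 5.84 in ICC, with 1 of the 10 higher and 1 lower by the test. Of the 7 stellate cell and fibroblast markers 3 rose in ICC (Col1a1, Pdgfrb and Dcn) and 0 fell, against 17.9% and 27.3% of all probes. Their sum spanned 5.49 to 6.99 in p53LKO HCC and 7.96 to 8.73 in ICC. The mean level of these 7 markers overlapped, at 0.24 to 1.88 in p53LKO HCC and 1.12 to 2.34 in ICC. Their part in the level of Bmp2 was not tested.

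Hfe, Tfr2 and Tmprss6 act on hepcidin upstream of the BMP receptors, and of these Hfe was the most even. Hfe, the partner of the transferrin receptors that is lost in a common form of hereditary iron overload, spanned 2.34 to 2.87 in p53f/f HCC, 2.31 to 3.19 in p53LKO HCC and 2.05 to 2.84 in ICC. Its difference was 0.03 between the HCC groups (95% interval -0.41 to 0.46) and -0.31 between ICC and HCC (-0.81 to 0.19). Neither difference passed the test (limma adjusted p = 0.925 and 0.292).

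Tfr2, the transferrin receptor of hepatocytes that senses iron-loaded transferrin, was higher in p53LKO HCC than in either other group. It read 5.15, 6.09, 5.47, 4.83 and 5.44 in p53f/f HCC. In p53LKO HCC it lay within 6.19 to 6.58, a narrow band above every p53f/f tumor. The difference of 1.00 ± 0.23 passed the test (limma adjusted p = 0.00692; exact permutation p = 0.00794), and it passed under all 24 other settings tried (limma adjusted p from 0.00125 to 0.0313). In ICC Tfr2 read 4.64, 3.28, 4.53, 4.68 and 4.25 in mice 3731, 3733, 3976, 3977 and 5283, all below every HCC of either genotype. It fell by 2.12 ± 0.26 from HCC to ICC, where the fold was 4.35 (limma adjusted p = 0.000208; exact permutation p = 0.00794), and did so in 4 of 4 mice with both tumors.

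Tmprss6, which encodes matriptase-2, followed Tfr2. It read 6.26, 6.87, 6.81, 5.85 and 5.56 in p53f/f HCC and 6.55, 7.29, 7.03, 7.23 and 7.40 in p53LKO HCC of mice 3976, 5283, 3731, 3733 and 3975. The difference of 0.83 ± 0.28 passed the test narrowly (limma adjusted p = 0.0431; exact permutation p = 0.0317), 4 of the 5 p53LKO tumors lying above the whole p53f/f group, and it was lost in 16 of 24 other settings, among them row as a block (0.95, limma adjusted p = 0.0595) and the mean of the tumors of mouse 3717 (0.69, limma adjusted p = 0.0976). In ICC the level dropped to 4.31, 1.88, 4.04, 4.50 and 3.29 in mice 3731, 3733, 3976, 3977 and 5283. With -3.50 ± 0.45 (11.3-fold lower; limma adjusted p = 0.000241; exact permutation p = 0.00794) this was the widest gap between ICC and HCC among the 10 genes, and it passed under all 23 other settings tried. Those 5 hepatocyte markers fell with both genes in ICC, and the part of hepatocyte content in these falls was not tested. In the HCC comparison 4 of the 10 hepatocyte markers passed downwards and 0 upwards in p53LKO HCC, against 22.7% and 10.1% of all probes. The part of hepatocyte content in the levels of Tfr2 and Tmprss6 was not tested there either.

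Id1, Smad6 and Smad7, the target genes of BMP signalling, did not pass the test between the HCC groups, and Id1 and Smad7 rose in ICC. Id1, a transcriptional inhibitor that is the usual readout of hepatic BMP signalling, was 2.96, 1.56, 1.18, 2.16 and 2.72 in p53f/f HCC and 1.33, 1.80, 1.85, 0.67 and 1.44 in p53LKO HCC. The difference of -0.70 ± 0.36 did not pass the test (limma adjusted p = 0.16). In ICC it was 1.70, 2.41, 2.61, 2.93 and 4.11 in mice 3731, 3733, 3976, 3977 and 5283. Mouse 3731 was the lowest and mouse 5283 the highest ICC, as for Hamp. The rise of 1.34 ± 0.40 (2.52-fold) passed the test (limma adjusted p = 0.02; exact permutation p = 0.0238), with 4 of 5 ICC above all p53LKO HCC. With the mouse as a paired block it was 1.297 and missed the threshold (limma adjusted p = 0.0646), as it did with row as a block (1.19, limma adjusted p = 0.132).

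Smad7, an inhibitory SMAD that switches the pathway off, spanned -0.09 to 0.90 in p53f/f HCC, 0.04 to 1.00 in p53LKO HCC and 0.90 to 1.72 in ICC. Between the HCC groups it differed by 0.23 ± 0.26 (limma adjusted p = 0.517). Its rise of 0.70 ± 0.23 in ICC passed the test (limma adjusted p = 0.0293; exact permutation p = 0.0159) and was lost with the paired block (0.79, limma adjusted p = 0.0879) and with row as a block (0.63, limma adjusted p = 0.161). Smad6, the second inhibitory SMAD, spanned -1.34 to -0.12, -2.24 to -0.43 and -1.58 to 0.67 in the 3 groups. Neither of its differences passed the test, with -0.39 between the HCC groups (95% interval -1.24 to 0.47) and 0.87 between ICC and HCC (-0.20 to 1.93; limma adjusted p = 0.164).

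**Figure D3:**
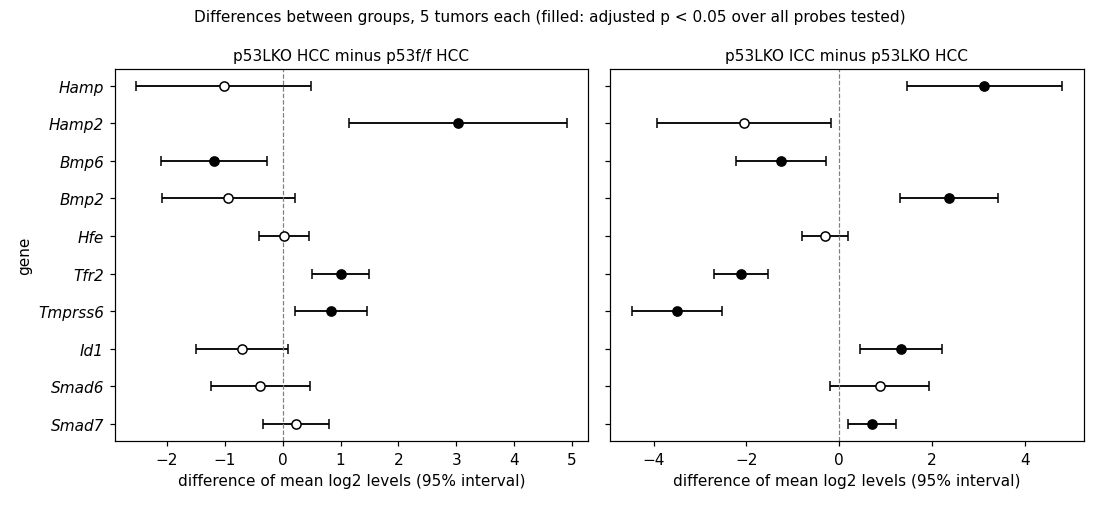
Difference of mean log2 level (x axis) of each gene (y axis) between the 5 p53LKO HCC and the 5 p53f/f HCC (left) and between the 5 ICC and the 5 p53LKO HCC (right), with 95% intervals and filled points at a limma adjusted p under 0.05. The points of 4 genes are filled on the left and those of 7 on the right.

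Counted together, 4 of the 10 genes passed an adjusted p of 0.05 between the HCC groups, with Hamp2, Tfr2 and Tmprss6 higher and Bmp6 lower in p53LKO. Over all 36087 probes tested, 32.8% passed, 10.1% higher and 22.7% lower in p53LKO HCC. With a fold over 2 as well, 3 of 10 remained against 19.6% of all probes, and the groups did not overlap for 1 of 10, Tfr2, against 22.5% of all probes. Between ICC and p53LKO HCC 7 genes passed, with Hamp, Bmp2, Id1 and Smad7 higher and Bmp6, Tfr2 and Tmprss6 lower in ICC. There 45.2% of 32670 probes passed, 17.9% higher and 27.3% lower. With a fold over 2 it was 6 of 10 against 26.4%, and groups without overlap were found for 4 of 10 (Hamp, Bmp2, Tfr2 and Tmprss6) against 28.6%. The median difference of the 10 genes was -0.18 between the HCC groups and 0.20 between ICC and HCC, where all probes had medians of -0.11 and -0.16. The 2 comparisons share the p53LKO HCC. Given as a count, the result for the HCC groups was close to the background, and with slide or row as a block it was 2 genes, when 9887 and 9495 of the 36087 probes passed. With row as a block 3 genes passed between ICC and HCC, all lower, of which Tfr2 and Tmprss6 were among the 7 and Hamp2 was not. With the mouse as a paired block 6 passed, Hamp2 again the addition to Hamp, Bmp2, Bmp6, Tfr2 and Tmprss6.

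Another 67 genes of the pathway, grouped by role, were read from the same fits. Between the HCC groups 62 could be tested, of which 8 were higher and 6 lower in p53LKO HCC, and between ICC and HCC 61 could be tested, of which 9 were higher and 21 lower in ICC. The shares of all probes passing were 32.8% and 45.2%, so that the first count, 14 of 62, lay below the background and the second, 30 of 61, near it. With the mouse as a paired block the second count was 15, when 8844 of 32670 probes passed, and with row as a block it was 14, when 8613 did.

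Among the other BMP ligands, Bmp10, a circulating ligand, was lower in p53LKO HCC (-0.87 ± 0.20, limma adjusted p = 0.00758) and higher in ICC than in p53LKO HCC (0.94, limma adjusted p = 0.00801). It was dim, well above background in 3 of 5 tumors of either p53LKO group. Bmp7 and Bmp4 were lower in ICC, at -2.08 (limma adjusted p = 0.00595) and -1.32 (limma adjusted p = 0.00585). Inhbb, which encodes the activin B subunit that can raise hepcidin in inflammation, was also lower in ICC (-1.33, limma adjusted p = 0.00405). Bmp2 and Bmp10 were therefore the 2 of 8 ligands that passed upwards in ICC, while 4 passed downwards, against 17.9% and 27.3% of all probes. Probes well above background on no array also read higher in ICC than in p53LKO HCC. Mean levels were -4.86 against -6.18 for Bambi and -4.89 against -6.05 for Bmpr1b. A rise of the size seen for the dim Bmp10 probe can thus not be told apart from a shift of the background.

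The receptors did not pass the test between the HCC groups (0 of 9 tested, against 32.8% of all probes). In ICC the co-receptor hemojuvelin (Hfe2) was lower, with -4.76 to -0.35 against 0.38 to 1.34 in p53LKO HCC and a difference of -2.59 ± 0.70 (6.02-fold, limma adjusted p = 0.0126). The groups did not overlap, and the lowest ICC (mouse 3733) was not well above background. Hfe2 and its protease gene Tmprss6 were therefore both lower in ICC, where Neo1, the hemojuvelin-binding receptor neogenin, was higher (0.64, limma adjusted p = 0.026) and the activin receptor gene Acvr2a lower (-0.69, limma adjusted p = 0.00325).

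Of the iron sensing partners, Tfrc, the transferrin receptor through which most cells take up iron, rose by 1.49 in p53LKO HCC (limma adjusted p = 0.00217) and fell by 1.17 from there to ICC (limma adjusted p = 0.0124), and its other 2 probes passed in the same directions. Trf and B2m, which encode transferrin and the light chain that Hfe needs, fell by 1.17 and 1.12 in ICC (limma adjusted p = 0.00859 and 0.000827). In ICC thus 4 of 5 genes of this group fell, against 27.3% of all probes, Tfr2 among them, with Hfe the exception. Erythroid markers fell there as well, in 3 of 3 tested. Their sum (log2 of 4 genes) spanned 5.48 to 7.09 in p53LKO HCC and 4.17 to 5.29 in ICC. The mean level of the 4 overlapped, at 0.40 to 1.80 in p53LKO HCC and -0.29 to 0.58 in ICC. The part of erythroid cells and hepatocytes in these falls was not tested.

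Among the transducers, Smad1 and the common partner Smad4 were higher in p53LKO HCC (0.81 and 0.82, limma adjusted p = 0.0108 and 0.00422, without overlap). A second probe of each gave less, 0.35 and 0.51, and did not pass (limma adjusted p = 0.0749 and 0.0529). Smad5 was higher in ICC than in p53LKO HCC (0.80, limma adjusted p = 0.0137). Id2, Id3 and Atoh8, further BMP targets, did not pass the test in either comparison, with 0.83 for Id3 in ICC (limma adjusted p = 0.138) and -0.50 for Id2 (limma adjusted p = 0.0536). Of the target list 2 of 6 tested rose in ICC, both described above (Id1 and Smad7), against 17.9% of all probes. Between the HCC groups 0 of 7 passed, against 32.8% of all probes.

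Inhibitors moved both ways in ICC, 3 of 15 upwards and 5 downwards, near the shares of all probes (17.9% and 27.3%). Fstl1 and Fstl3, follistatin-like genes whose products bind ligands of this family, were higher (2.75 and 1.58, limma adjusted p = 0.000314 and 0.0284). Fstl1 did not overlap between the groups. Lower were Furin, whose product can cleave hemojuvelin (-0.88, limma adjusted p = 0.00347), and Tmprss6. Fkbp1a, whose product binds the type I receptors and holds them inactive, was lower as well (-0.60, limma adjusted p = 0.00728), and its other 2 probes lay in the same direction (-0.81 and -0.40, limma adjusted p = 0.0088 and 0.0652). Spint2 is among the 5 by its brightest probe (-0.85, limma adjusted p = 0.0165), but its other probe passed in the opposite direction (1.34, limma adjusted p = 0.00985). The antagonist Chrd was slightly lower in p53LKO HCC (-0.47, limma adjusted p = 0.0432).

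Of the inflammatory arm that also acts on Hamp, 2 of 7 genes passed in ICC, both higher, a share below the 45.2% of all probes. Il6st, which encodes the signalling receptor for IL-6, rose by 0.84 ± 0.24 (limma adjusted p = 0.0178), with 3 of 5 ICC above all p53LKO HCC. Socs3 is the feedback inhibitor that STAT3 induces. Its level was 3.53 to 3.91 in ICC and 1.5 to 2.83 in p53LKO HCC, with no overlap and a rise of 1.65 ± 0.23 (3.14-fold, limma adjusted p = 0.000375). The acute phase genes Saa1 and Saa2 rose in ICC by 1.96 and 2.15 (limma adjusted p = 0.0071 and 0.00628). Others of that list fell, among them Lcn2 by 2.76 (limma adjusted p = 7.5e-05) and Orm1 by 1.65 (limma adjusted p = 0.0285). In all 2 of 11 rose and 4 fell, against 17.9% and 27.3% of all probes. Il6 itself did not pass the test (0.85, limma adjusted p = 0.0852). For Stat3 the brighter probe gave 0.06 (limma adjusted p = 0.845) and the other 0.52, which passed (limma adjusted p = 0.0338). Between the HCC groups 1 of 7 genes of the IL-6 list was higher in p53LKO, against 10.1% of all probes, the kinase gene Jak2 (0.55, limma adjusted p = 0.0435). Among the acute phase genes Saa3 and Lcn2 were higher in p53LKO HCC than in p53f/f HCC (2.51 and 1.34, limma adjusted p = 0.00776 and 0.00701) and the fibrinogen genes Fga, Fgb and Fgg lower (-1.33, -0.95 and -0.93). A second Fga probe gave -0.99 and did not pass (limma adjusted p = 0.126).

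Transcription factors that act on the Hamp promoter were lower in ICC in 5 of 7 cases, against 27.3% of all probes. Hnf4a fell by 2.03 (limma adjusted p = 0.000397), Creb3l3 by 1.50 (limma adjusted p = 0.00334) and Cebpa by 0.88 (limma adjusted p = 0.00723). These are hepatocyte factors, and Hnf4a is also one of the hepatocyte markers. Usf2 is among the 5 by its brightest probe (-0.96, limma adjusted p = 0.0209), whereas its other probe gave -0.09 and did not pass (limma adjusted p = 0.712).

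**Figure D4:**
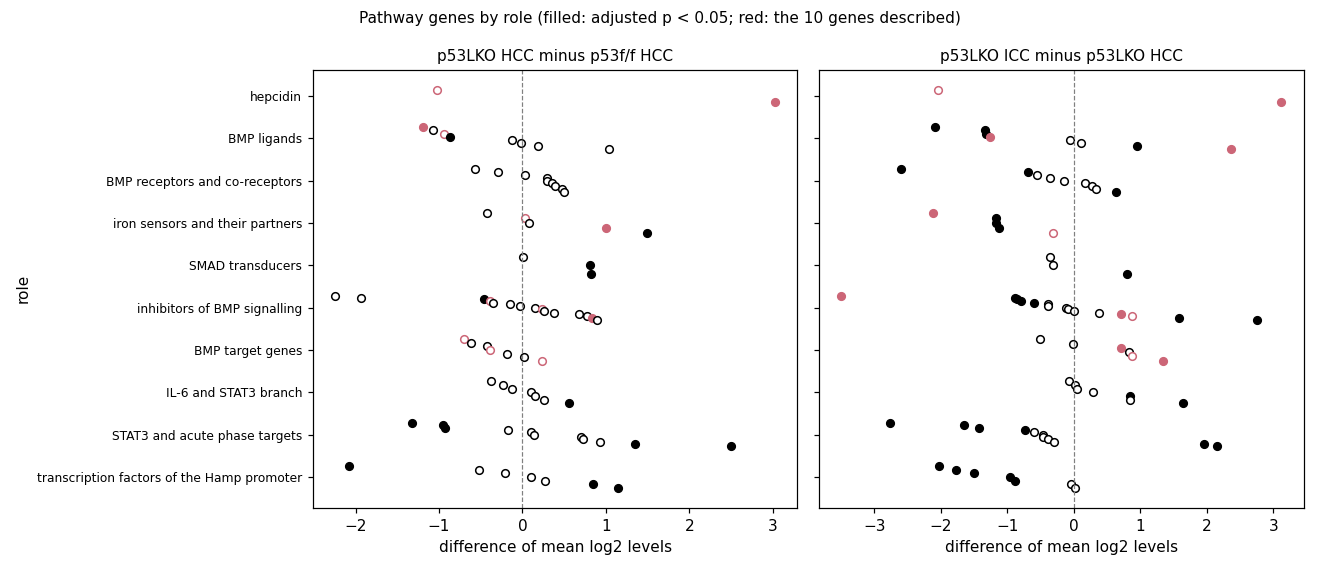
Difference of mean log2 level (x axis) of the pathway genes tested, by role (y axis), between p53LKO HCC and p53f/f HCC (left) and between ICC and p53LKO HCC (right), with filled points at a limma adjusted p under 0.05 and the 10 genes described first in red. A gene with several roles appears in each, and in ICC the filled points of the iron sensors and of the transcription factors all lie below 0.

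How hepcidin and the BMP targets varied together was measured in 2 ways, over 9 mice with HCC (the tumors of mouse 3717 averaged) and over all 15 tumors after subtracting each group's mean. There were 45 pairs among the 10 genes for each, of which 5 had an exact permutation p under 0.05 over the HCC mice and 7 a permutation p under 0.05 within groups. The permutations within groups treat the 15 tumors as independent. They take no account of the 2 tumors of mouse 3717 or of the p53LKO mice that gave both an HCC and an ICC. In a model of group and Hamp level over all 36385 probes that could be tested, 0% passed an adjusted p of 0.05 (3273 probes at an unadjusted p under 0.05, smallest limma adjusted p 0.44), so no relation with Hamp below passed a correction over the array.

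Hamp2 was the gene of the 10 that followed Hamp most closely within groups. Pearson's r of the deviations was 0.815 (permutation p = 0.00171) and Spearman's rho 0.8 (permutation p = 0.00286), and r was 0.845 without the 2 tumors farthest from the median of Hamp. The slope was 0.88 ± 0.17 log2 units of Hamp2 per unit of Hamp (limma adjusted p = 0.44 over all probes). It ranked 6 among 12274 genes ordered by their r with Hamp. Within the upper row r was 0.848 (8 tumors) and within the lower row 0.587 (7 tumors), and without the p53LKO HCC it was 0.653 (permutation p = 0.0584). Over the 9 HCC mice, where group means were not subtracted, r was 0.228 (exact permutation p = 0.556) and rho 0.267 (exact permutation p = 0.493).

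Within groups over all tumors, the BMP targets had a lower r with Hamp than Hamp2 did, a difference that was not tested. This order did not hold over the HCC mice, where Id1 and Smad6 lay above Hamp2 (r = 0.228). Nor did it hold in every subset of the tumors (below). Within groups r was 0.549 for Smad6 (permutation p = 0.0637; rho 0.4, permutation p = 0.192), 0.406 for Id1 (permutation p = 0.15; rho 0.167, permutation p = 0.618) and 0.203 for Smad7 (permutation p = 0.483; rho 0.133, permutation p = 0.695). Without the 2 tumors farthest from the median of Hamp, r fell to 0.055 for Id1 (-0.108 with group means taken anew), 0.344 for Smad6 and -0.131 for Smad7, so that the value for Id1 rests on those tumors. Over the 9 HCC mice r was 0.282 for Id1, 0.544 for Smad6 and -0.065 for Smad7 (exact permutation p = 0.47, 0.135 and 0.867), and without 2 mice it turned to -0.581, -0.651 and -0.585.

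The values of r were not alike across subsets of the tumors. With the p53f/f HCC left out, r of Hamp over the 10 p53LKO tumors was 0.805 with Id1, 0.856 with Smad6 and 0.806 with Bmp2 (permutation p = 0.00524, 0.0019 and 0.00342). In the lower row (7 tumors, all p53LKO) it was 0.95 with Id1, 0.78 with Smad6 and 0.825 with Bmp2, and in the upper row (8 tumors) -0.128, 0.022 and 0.082. By slide, r was -0.553 with Id1, -0.763 with Smad6 and -0.691 with Bmp2 on slide 1 (7 tumors, 4 of them p53f/f HCC) and 0.915, 0.785 and 0.668 on slide 2 (8 tumors, 1 of them p53f/f HCC). Smad7 gave 0.53 in the lower and -0.026 in the upper row, and -0.436 and 0.542 on slides 1 and 2. Bmp6 ran the other way by row, at 0.007 in the lower and 0.653 in the upper row (0.375 and 0.509 by slide). Hamp2 gave 0.587 in the lower row, less than Id1, Smad6 and Bmp2, and 0.804 on slide 2, less than Id1. Genotype, row and slide overlap too far to be told apart here, and the difference between the subsets was not tested.

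Bmp6 was the ligand that followed Hamp over the HCC mice, with r = 0.814 (exact permutation p = 0.00707) and rho = 0.667 (exact permutation p = 0.0589). The relation weakened to 0.458 without the 2 mice farthest from the median of Hamp, and within groups over 15 tumors r was 0.472 (permutation p = 0.125). It thus rests in good part on mice 3733 and 3975, which had the lowest Hamp and the lowest Bmp6 of all HCC.

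Apart from Hamp with Hamp2, 3 relations had a permutation p under 0.05 within groups for both r and rho. The ligand gene Bmp2 varied with the target Smad6, with r = 0.571 (permutation p = 0.0257; rho 0.6, permutation p = 0.0391) and 0.666 over the HCC mice (exact permutation p = 0.0446; rho 0.667, exact permutation p = 0.0589). Without the 2 tumors or mice farthest from the median of Bmp2 these were 0.651 and 0.473. Tfr2 and Tmprss6 varied together, with r = 0.825 within groups (permutation p = 0.0052; rho 0.667, permutation p = 0.0196) and 0.817 over the HCC mice (exact permutation p = 0.00731). Without the 2 tumors or mice farthest from the median of Tfr2 these were 0.644 and 0.453. Smad6 and Smad7 did so within groups, with r = 0.734 (permutation p = 0.00422; rho 0.633, permutation p = 0.0283) and 0.662 over the HCC mice (exact permutation p = 0.0537). Neither Tfr2 (-0.016) nor Tmprss6 (0.019) moved with Hamp within groups.

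**Figure D5:**
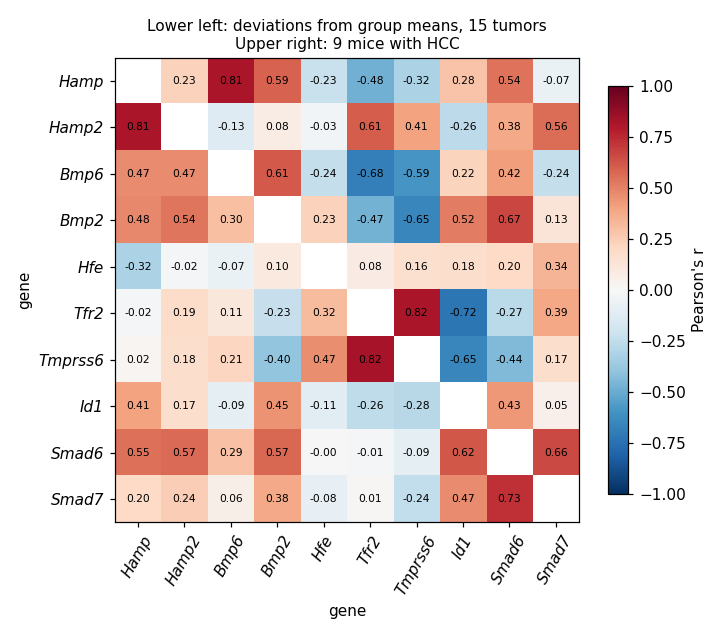
Pearson's r between each pair of the 10 genes (both axes), from deviations from the group means over 15 tumors below the diagonal and over 9 mice with HCC above it, with colour from -1 to 1. Within groups the highest values join Tfr2 with Tmprss6 (0.825), Hamp with Hamp2 (0.815) and Smad6 with Smad7 (0.734).

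Across all genes well above background on at least 12 arrays, those whose deviations were most like Hamp were Sphk2 (r = 0.909), Shf (0.896), Psmc4 (0.883), Anapc15 (0.845) and Timm50 (0.835). The genes most like Id1 were Emc10 (0.858), Cln6 (0.852), Oas1d (0.852), Atp6v1e1 (0.851) and Fbrs (0.831), and no BMP target was among them, Smad6 ranking 430 of 12274. For Hamp2, over genes well above background on at least 8 arrays, they included Aifm3 (0.839), Hamp (0.815), Krtap5-2 (0.81) and Cyp8b1 (0.796). These are descriptions over 15 tumors with no test.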

How the data were processed

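RNA of 15 tumors was labelled with Cy3 and hybridised to 1-colour Agilent mouse arrays. The authors extracted the images with Feature Extraction 10.7.3.1, whose processed signal is an intensity after background subtraction and removal of spatial trends. The table of log2 values deposited by the authors equals the log2 processed signal minus the array's 75th percentile, centred per probe on different arrays for HCC and ICC (correlation with rebuilt HCC values at least 0.99999), and was used only as an alternative for the HCC comparison. Here spots without outlier flags were averaged per probe on the log2 scale and shifted by the 75th percentile over non-control probes of its array. Probes that at least 3 arrays of either group showed well above background were fitted with limma 3.58.1 in R 4.3.3, on the 10 arrays of each comparison, with Benjamini-Hochberg adjustment over all of them. A gene was read from its probe with the highest mean level. Where all arrays of a group were not well above background, the fold is a bound against the background of those arrays. Exact permutation tests are two-sided over all splits of the 10 tumors. Correlations used 362880 orders of 9 mice or 100000 permutations within groups, the latter over single tumors without regard to shared mice. The p-values measure the spread between tumors. Arrays have no read depth, and their number and the signal over background limit the precision.

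Members, gene lists and tests were chosen with earlier results of these data known. Named are all 10 genes, pathway genes passing the test (up to 20 per comparison by size), markers, and the 5 genes most like Hamp, Id1 or Hamp2. Some genes that this rule names are not reported here. Id2, Id3, Atoh8, Il6 and Stat3, which did not pass by their brightest probe, and Smad5, Acvr2a, Neo1, Furin, Cebpa, Fkbp1a, Spint2 and Il6st, outside those 20, were named after their values were seen. The mouse numbers pair HCC and ICC of 4 mice because they name the same animal, and the correlation of the deviations of such pairs was -0.143 to 0.065, against -0.262 to 0.283 for other pairs. On simulated data with 200 changed probes, the fits recovered 78% of changes of 2 log2 units in the HCC comparison (36087 probes) and 76% in ICC against HCC (32670 probes), with 0 in the wrong direction. Alternatives were normexp background correction (offset 50), 3 other scalings (quantile, probes well above background on all arrays, 7 spike-in probes), 3 other filters on dim probes, slide, row or mouse as a block, single rows, all arrays in 1 model, the methods' t-test, averaged probes, a fold over 2 and leaving out each tumor. The lower row alone was added after seeing the data.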

Additional observations from a re-analysis of the deposited data

Results flagged for a closer look

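Bmp2 of the p53f/f HCC of mouse 3716 was far below the others of its group, at -1.14 against 0.27 to 0.48 in the other 4 tumors. The same tumor had the highest Hamp and the highest Bmp6 of its group and the lowest Id1. Of 30 groups of 5 tumors checked this way, 1 stood out, and chance alone gives about 1 in 20.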

How the results depend on the processing

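Of the single-gene values under other settings, 387 kept their direction and their side of the threshold, 62 fell below it, 9 rose above it and 9 changed sign. The calls of Tfr2 in both comparisons and of Tmprss6 in ICC held under every setting run. Between the HCC groups the count of 10 genes passing (4) was 2 with quantile normalization, without a filter on dim probes, with slide or row as a block, in the upper row alone and with the tumors of mouse 3717 averaged, 1 with the methods' t-test after Benjamini-Hochberg adjustment, and 2 to 4 when 1 tumor was left out. The 14 other pathway genes became 34 with spike-in scaling (33 higher, 1 lower), when 18702 of 36087 probes passed in place of 11838, 9 without a filter (8496 of 55681 probes), 9 with slide or row as a block, 8 in the upper row alone, 6 with a fold over 2 as well, and 9 to 14 when 1 tumor was left out. Spike-in scaling shifted the median difference of all probes between the HCC groups upwards by 0.74 and had 5 of the 10 genes higher and 0 lower. Between ICC and HCC the 7 genes became 3 with row as a block and 5 to 8 when 1 tumor was left out. The 30 other pathway genes became 14 with row as a block, 11 in the lower row alone, 15 with the mouse as a replicate block, 18 with a fold over 2 as well and 25 to 30 when 1 tumor was left out. Under the 75th percentile of probes well above background on all arrays, 14 of them were higher and 11 lower in ICC, and under quantile normalization 11 and 15, where the reported split was 9 and 21. With the mouse as a replicate block, Id1 (1.30) and Smad7 (0.79) lost their call and Hamp2 (-2.71) gained one.

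Differences that changed sign between the HCC groups were Hfe with quantile normalization (-0.202), with the percentile of bright probes just named (-0.218) and with single tumors left out (range -0.087 to 0.132), Smad7 with that percentile (-0.014), and Id1 (0.039) and Smad6 (0.351) with spike-in scaling. Between ICC and HCC it was Hfe with that percentile (0.063). None of these passed the test in the reported setting. Of the correlations with Hamp within groups, those that changed sign were with Bmp2 when the p53LKO HCC were left out (-0.011), with Hfe under spike-in scaling (0.067), with Tfr2 under spike-in scaling (0.235), without the 2 tumors farthest from the median of Hamp and group means taken anew (0.073) and without the p53LKO HCC (0.156), with Tmprss6 under that percentile (-0.026), quantile normalization (-0.019) and without the p53f/f HCC (-0.202), with Id1 without the 2 tumors and group means taken anew (-0.108) and without the ICC (-0.007), and with Smad7 without the 2 tumors and group means taken anew (-0.271) and without the p53LKO HCC (-0.019). Over the HCC mice, leaving out the 2 mice farthest from the median of Hamp gave -0.582 for Bmp2, 0.114 for Tfr2, 0.446 for Tmprss6, -0.581 for Id1 and -0.651 for Smad6. There Hfe became 0.033 and Smad7 0.097 with that percentile, Smad7 0.099 with spike-in scaling, and Spearman's rho was -0.05 for Id1. The cause of these changes was not tested. Bmp6 lies near background, where the array's signal limits its fold.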

Other observations

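Of the 100 genes whose deviations from the group means had the highest correlation with those of Hamp, 22 (22%) lay on chromosome 7 of mm9 and 6 (6%) within 10 Mb of Hamp, against 937 (7.63%) and 173 (1.41%) of the 12273 other genes compared. Among the first 25 genes 3 lay on chromosome 7. These are descriptions with no test.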
